A study of Mus musculus with 28 samples.

Results

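Crotonylated lysine 9 (H3K9cr) and acetylated lysine 9 (H3K9ac), acyl marks on the same residue of histone H3, were compared in neural stem and progenitor cells by the peak lists of 4 chromatin immunoprecipitation libraries, 2 per mark. The 4 lists were chosen by their labels: mark H3K9ac or H3K9cr, day 4. They are 4 of the 28 samples of the series and 4 of its 14 peak lists. The peaks of the 4 lists merged into 41690 regions, out of 567612 peaks in all 14 lists. All 4 samples came from P19, a mouse embryonal carcinoma line that can be turned into neural cells, after 4 days in 1 µM retinoic acid in medium with serum. The other groups used here were also P19 cells, all without a genetic change in the labels: RNA-seq at day 0 without retinoic acid, at day 4, and at day 8 after replating in neuronal medium, with 2 libraries each; H3K18la (lactylated lysine 18) and ATAC-seq, which marks open chromatin, at day 4, with 2 lists each; and H3K9ac and H3K9cr at day 2 of 1 µM retinoic acid, with the solvent DMSO or with MS-275, an inhibitor of class I histone deacetylases, added on day 1, with 1 list each. RNA-seq at day 2 of 1 µM retinoic acid, with DMSO or with MS-275 and 2 libraries each, also entered the RNA fit. Chromatin was immunoprecipitated in the native state, and the marks were drawn with different antibodies of one vendor, so that the mark and the antibody cannot be told apart. P19 is a single tumour-derived line, so that all values describe that line, and the series names its replicates as biological without saying how far apart the cultures were grown.

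Acetylation and crotonylation are put on histone lysines from acetyl-CoA and crotonyl-CoA, in part by the same writers, among them the acetyltransferase p300, and are taken off by overlapping sets of deacetylases. Both marks are known from active promoters and enhancers. Bromodomain proteins bind mainly the acetyl form, whereas YEATS domain proteins such as AF9, encoded by Mllt3, bind the crotonyl form more tightly. Because one lysine carries either group at a time, a region with both marks holds a mixture of histone tails or cells.

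The start-site sequences that follow belong to genes of the classes described further on, and are shown because the classes differed in the number of CpG dinucleotides around the start. They run from 250 bases before to 50 bases after the start on the strand of the gene, are taken from RefSeq on build GRCm38.p6, and have each CpG in capitals. Zfp207 had a strong peak in all 4 lists, and Hoxb4 lay in a long, strong region of all 4 lists that ran over several Hoxb genes. P2ry12 and Dnajb13 had a weak peak in both H3K9ac lists and none in either H3K9cr list. Cfap161 and Zfp92 had a weak peak in both H3K9cr lists and none in either H3K9ac list.
Hoxb4, chr11:96318017-96318316, strand +: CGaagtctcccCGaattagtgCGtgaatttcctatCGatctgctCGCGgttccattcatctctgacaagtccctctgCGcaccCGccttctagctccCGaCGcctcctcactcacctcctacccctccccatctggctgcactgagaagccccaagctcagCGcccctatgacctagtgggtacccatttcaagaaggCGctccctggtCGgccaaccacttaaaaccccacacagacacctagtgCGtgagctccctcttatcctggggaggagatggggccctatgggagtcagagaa
Zfp207, chr11:80383029-80383328, strand +: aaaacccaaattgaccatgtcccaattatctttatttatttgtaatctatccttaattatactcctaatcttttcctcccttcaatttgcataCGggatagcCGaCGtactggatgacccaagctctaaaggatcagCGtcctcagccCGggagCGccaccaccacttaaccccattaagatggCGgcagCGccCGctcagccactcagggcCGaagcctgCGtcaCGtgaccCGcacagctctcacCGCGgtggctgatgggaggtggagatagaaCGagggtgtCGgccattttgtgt
P2ry12, chr3:59262936-59263235, strand -: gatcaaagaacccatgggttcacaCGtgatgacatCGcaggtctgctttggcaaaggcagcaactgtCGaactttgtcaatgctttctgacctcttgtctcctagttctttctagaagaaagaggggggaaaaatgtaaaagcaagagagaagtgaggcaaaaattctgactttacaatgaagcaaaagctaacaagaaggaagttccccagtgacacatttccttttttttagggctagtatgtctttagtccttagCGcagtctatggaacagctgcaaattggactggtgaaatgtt
Dnajb13, chr7:100514766-100515065, strand -: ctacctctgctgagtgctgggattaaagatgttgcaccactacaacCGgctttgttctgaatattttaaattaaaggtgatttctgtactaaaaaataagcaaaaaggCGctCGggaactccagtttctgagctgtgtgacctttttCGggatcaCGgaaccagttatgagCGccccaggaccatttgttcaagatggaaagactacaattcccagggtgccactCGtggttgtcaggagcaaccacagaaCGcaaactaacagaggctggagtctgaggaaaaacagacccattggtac
Cfap161, chr7:83794790-83795089, strand -: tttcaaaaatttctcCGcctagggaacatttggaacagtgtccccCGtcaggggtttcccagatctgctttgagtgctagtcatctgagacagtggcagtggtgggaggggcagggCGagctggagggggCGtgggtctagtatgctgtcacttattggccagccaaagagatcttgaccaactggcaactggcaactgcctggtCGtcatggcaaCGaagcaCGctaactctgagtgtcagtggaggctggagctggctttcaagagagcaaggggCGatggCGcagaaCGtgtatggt
Zfp92, chrX:73410846-73411145, strand +: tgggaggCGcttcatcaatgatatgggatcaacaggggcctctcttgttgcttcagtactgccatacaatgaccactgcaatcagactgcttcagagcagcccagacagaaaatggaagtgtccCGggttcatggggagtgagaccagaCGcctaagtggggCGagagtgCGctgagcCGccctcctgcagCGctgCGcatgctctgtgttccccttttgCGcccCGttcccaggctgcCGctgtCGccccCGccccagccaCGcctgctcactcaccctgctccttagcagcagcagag
The 300 bases of Hoxb4 held 14 CpG and those of Zfp207 held 17. Those of P2ry12 held 4 and those of Dnajb13 held 8, while Cfap161 had 10 and Zfp92 had 14.

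The day 4 RNA held the markers of the labelled type, together with those of neurons and of mesenchyme. Total estimated counts lay between 18115926 and 19586374 per RNA library, and expression is given as counts scaled to the size of the library (CPM). All 8 neural stem and progenitor markers were at 1 CPM or more, with a summed level of 2075 and 1960 CPM in the day 4 libraries against 607 and 619 at day 0. The 6 pluripotent cell markers fell from 1923 and 1875 CPM in sum to 3.04 and 4.61, with Dppa4 and Zfp42 listed at 0. All 6 neuron markers (2540 and 2445 CPM in sum against 356 and 369 at day 0) and all 6 fibroblast and mesenchyme markers (778 and 892 CPM against 56.2 and 49.8 at day 0) were also present, beside the progenitor markers. Cardiac and muscle markers summed to 0.73 and 0.56 CPM and blood markers to 0.32 and 0.33 CPM. In such bulk samples fewer cells of a type and less RNA per cell cannot be told apart. The part of other cells in the peak lists was not tested.

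H3K9cr gave fewer peaks than H3K9ac, and the whole of that gap lay away from gene starts. The H3K9ac lists held 38703 and 37578 peaks and the H3K9cr lists 29280 and 28707, a ratio of means of 0.760 with no overlap between the marks. Peaks whose summit lay within 1 kb of a listed start site numbered 11009 and 11007 for H3K9ac and 11227 and 10894 for H3K9cr, so that the lists overlapped there. Peaks farther away numbered 27694 and 26571 for H3K9ac against 18053 and 17813 for H3K9cr, a ratio of 0.661. Summits near a start therefore made up 28.4% and 29.3% of the H3K9ac peaks and 38.3% and 37.9% of the H3K9cr peaks. Covered length was 53.4 and 52.7 Mb for H3K9ac and 38.8 and 41.4 Mb for H3K9cr, a ratio of 0.756. Peaks longer than 5 kb numbered 568 and 579 for H3K9ac and 313 and 385 for H3K9cr. The median peak length did not separate the marks, at 1043 and 1063 bases against 1055 and 1167. A two-sided exact permutation test over 4 lists cannot give a p below 0.333, and it gave that value for each measure without overlap (0.467 after Benjamini-Hochberg adjustment over 7 measures), 0.667 for the median length and 1.00 for the number of peaks near a start. Peak lists carry no read depth, so the depth of these libraries is unknown here, and its part in the number of peaks was not tested.

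**Figure D1:**
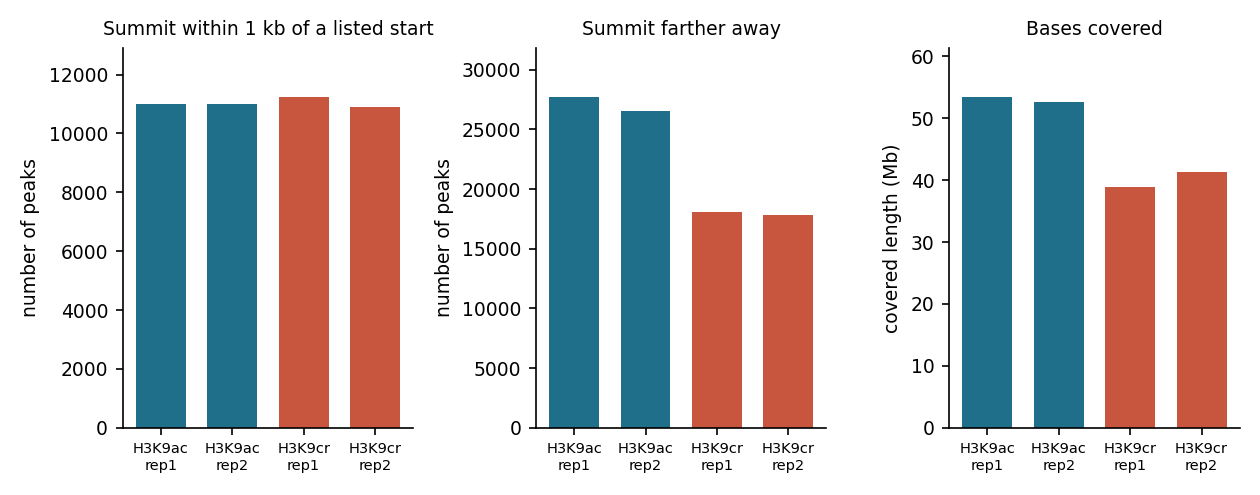
Number of peaks with the summit within 1 kb of a listed start site (left) and farther away (middle), and covered length in Mb (right), one bar per day 4 peak list. The 4 bars near starts lie between 10894 and 11227, whereas away from starts both H3K9ac bars (27694 and 26571) stand above both H3K9cr bars (18053 and 17813).

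Nearly every H3K9cr peak lay on an H3K9ac peak, but not the reverse. Between 98.2% and 98.8% of the peaks of an H3K9cr list overlapped a peak of an H3K9ac list by at least 1 base, whereas 68.8% to 71.6% of the peaks of an H3K9ac list overlapped an H3K9cr list. Replicates of the same mark overlapped in 87.1% and 90.3% (H3K9ac) and 91.0% and 89.5% (H3K9cr) of their peaks. In bases, the shared part of the union was 81.7% between the H3K9ac lists and 82.2% between the H3K9cr lists, and 70.9% to 75.2% between lists of different marks. When every list was limited to its 28707 strongest peaks, the shares were 84.3% and 82.2% within a mark and 75.4% to 79.5% between marks. The between-mark values thus lay below the within-mark values in both comparisons.

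Of the 41690 regions, 24265 (58.2%) had a peak in all 4 lists and these held 83.9% of the covered bases. A further 5021 (12.04%) had a peak in both H3K9ac lists and in no H3K9cr list, 12 had a peak in both H3K9cr lists and in no H3K9ac list, and in 12392 the replicates of a mark disagreed. The direction of this imbalance held, but its size depended on the length of the lists: with 28707 peaks in every list, 869 regions were H3K9ac only and 193 were H3K9cr only. Shared regions had a median length of 1773 bases and a median fold enrichment of 25.7 and 24.3 in the H3K9ac lists and 21.1 and 20.03 in the H3K9cr lists. Fold enrichment is the authors' value, the signal at the summit over the local background, and serves here mainly to rank and group peaks within a list. Values set side by side between lists are a description, since the antibodies differed between marks and the depth is unknown. Regions of H3K9ac only were 574 bases long in the median, with a fold enrichment of 4.34 and 4.20, near the weak end of their lists. Of shared regions 42.8% lay within 1 kb of a listed start site, against 2.65% of the regions of H3K9ac only, whose median distance to a listed start was 47.1 kb against 4.88 kb.

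The presence of H3K9cr at an H3K9ac peak followed the strength of that peak. Among H3K9ac peaks with a fold enrichment under 4, 16.7% (replicate 1) and 19.7% (replicate 2) overlapped a peak of either H3K9cr list. The share was 42.1% and 49.99% at 4 to 6, 88.3% and 91.8% at 6 to 10, 99.8% and 99.9% at 10 to 20, and 100% at 20 or more. The same weak peaks were also found less often in the other replicate of their own mark, in 49.4% and 59.3% of cases under 4 and 74.2% and 84.1% at 4 to 6. Weak H3K9cr peaks, with a fold enrichment under 4, recurred in the other H3K9cr list in 54.6% and 48.4% of cases. They overlapped a peak of either H3K9ac list in 96.9% and 95.5%, and of a single H3K9ac list in 89.4% to 93.5%. The H3K9ac lists held more peaks than the H3K9cr lists, and the part of list length in these shares was not tested. Within the H3K9ac bin of 4 to 6, peaks with H3K9cr were longer than those without (636 against 406 bases in replicate 1, 638 against 398 in replicate 2), more often near a start (7.54% against 2.33%, and 7.14% against 2.47%) and more often on open chromatin (27.5% against 19.9%, and 30.1% against 20.4%).

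**Figure D2:**
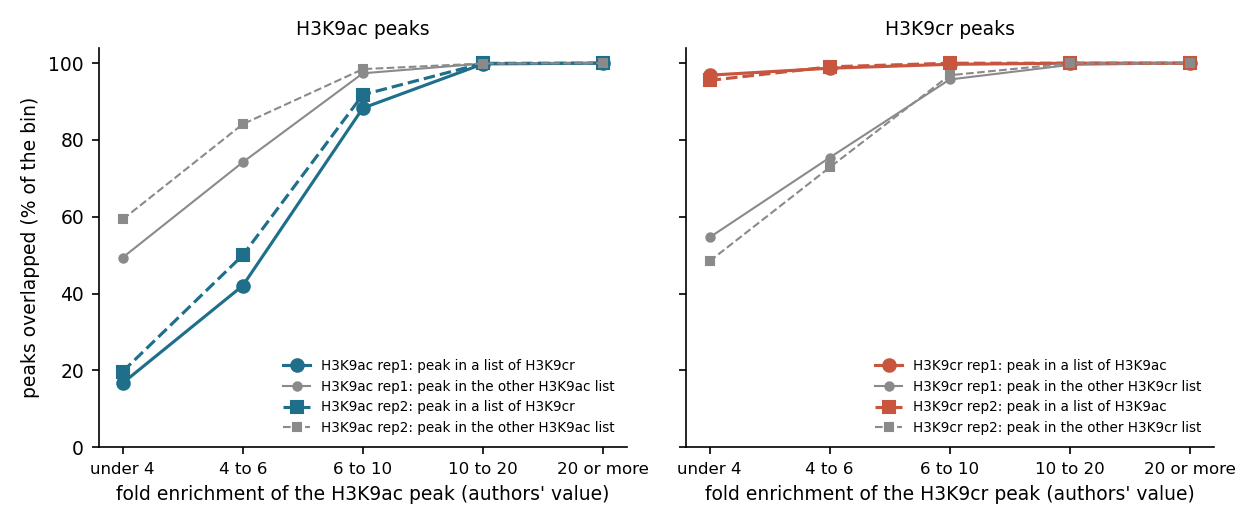
Share of H3K9ac peaks (left) and H3K9cr peaks (right) that overlapped a peak in either list of the other mark (coloured) or in the other list of the same mark (grey), by the authors' fold enrichment of the peak. H3K9ac peaks with a fold enrichment under 4 met H3K9cr in 16.7% and 19.7% of cases and those of 20 or more in 100%, whereas at least 95.5% of the H3K9cr peaks in every bin met H3K9ac.

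The regions of H3K9ac only reached no high fold enrichment. Taking the lower of the 2 fold enrichments, the 5021 regions of H3K9ac only had a median of 3.78 and a maximum of 10.01, and 159 reached 6. The strongest lay inside Frrs1, a ferric reductase gene, at chr3:116903979-116904307, with 12.96 and 10.01. It was followed by a region inside Unc45b, which encodes a chaperone of muscle myosin, at chr11:82914795-82915124 with 11.99 and 9.36. A region inside Slit1, an axon guidance ligand gene, at chr19:41696953-41698852 had 8.34 and 8.56 and was 1900 bases long, the longest of the 6 strongest. The 12 regions of H3K9cr only were weaker still, between 2.89 and 5.82 in fold enrichment and at most 525 bases long. Among them 2 lay within 1 kb of a start site, those of Cfap161 (4.81 and 3.40) and of Zfp92 (3.33 and 3.55), 4 lay inside Trub1, Myh14, Sigirr and A630023A22Rik, and 6 lay outside genes. Coordinates are those of the deposited lists on GRCm38, and the regions inside genes named here were taken from the top of the ranking after their values were seen.

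At the shared regions both marks ordered the genome almost alike. Over the 24265 regions the Spearman correlation of fold enrichment was 0.963 between the H3K9ac lists and 0.962 between the H3K9cr lists. Between marks it was 0.972 and 0.978 for lists with the same replicate number and 0.957 and 0.956 for lists with different numbers. For pileup at the summit the correlations were 0.989 and 0.983 within a mark and 0.978 to 0.983 between marks, and for covered length 0.970 and 0.961 within a mark and 0.919 to 0.936 between marks. These correlations run across regions of the same libraries, which are not independent points, and carry no test. The order of fold enrichment was thus as close between marks as between replicates, while the covered length was closer within a mark. Summits at the 20669 regions with exactly 1 peak in each list lay a median of 28 (H3K9ac) and 41 (H3K9cr) bases apart between replicates and 32 to 34 bases apart between marks.

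A few regions did change place. When each list was ranked over the same 24265 regions, both H3K9cr lists ranked a region above both H3K9ac lists by more than 10 percentile points in 95 regions (0.392%), and both H3K9ac lists ranked it above both H3K9cr lists in 139 (0.573%). The same gap between replicate 1 and replicate 2 lists occurred in 5.35% of regions, so gaps of this size were more frequent by replicate number than by mark. Of the 95 regions that ranked higher for H3K9cr, 38.9% lay near a start, and of the 139 that ranked higher for H3K9ac, 7.91%, against 42.8% of all shared regions. Most of the 95 were weak, with median fold enrichments of 6.89 and 6.56 for H3K9ac and 8.04 and 7.42 for H3K9cr. Among them were the starts of Cav2, a caveolin gene at 0.10 and 0.11 CPM (5.18 and 5.66 against 7.29 and 7.598), and of Robo2, an axon guidance receptor gene at 41.0 and 41.9 CPM (5.42 and 5.04 against 7.76 and 6.58). The strongest of them lay at Foxp1, a forkhead transcription factor gene, with a fold enrichment of 68.9 in both H3K9ac lists and of 125 and 110 in the H3K9cr lists, or percentiles of 82.1 and 82.3 against 98.7 and 97.0. Mycl, a MYC family gene, stood at percentiles 75.4 and 72.4 for H3K9ac against 93.3 and 86.2 for H3K9cr, and Fndc5, which encodes the precursor of irisin, at 67.2 and 71.6 against 85.3 and 84.7. Clptm1 went the other way, at percentiles 94.6 in both H3K9ac lists against 78.8 and 81.7 for H3K9cr. Among the 11 regions with a start site that ranked higher for H3K9ac, 2 held replication-dependent histone genes, H4c3 (percentiles 63.9 and 64.3 against 48.5 and 52.0) and the trio H2ac11, H2bc11 and H4c9 (70.4 and 69.1 against 57.1 and 57.9). Histone genes have near-identical copies, and how the counting and alignment split reads among them was not tested. All genes of this paragraph were picked after their values were seen, and their ranks are a description without a test.

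H3K9cr covered a shorter stretch than H3K9ac at the regions where both were present. The median covered length was 1650 and 1661 bases in the H3K9ac lists and 1330 and 1419 in the H3K9cr lists, and the median ratio of H3K9cr to H3K9ac per region was 0.876. Both H3K9ac lists covered more bases than both H3K9cr lists in 15901 regions (65.5%), and the reverse held in 235 (0.968%). The ratio was 0.922 within 1 kb of a listed start, 0.817 inside genes away from starts and 0.777 outside genes. Over 4 equal groups of regions by H3K9ac replicate 1 fold enrichment it rose from 0.663 in the weakest to 0.826, 0.912 and 0.931. Between replicates the median log2 ratio was 0.01 for H3K9ac and 0.07 for H3K9cr, against -0.19 between the marks, so the 2 H3K9cr lists also differed from each other by part of that gap.

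The regions were then tested one by one. With each list centred on its own median, which removes a shift of -0.27 on the log2 scale between the marks, limma called none of 24265 regions at an adjusted p under 0.05 (0% called, and 5485 at an unadjusted p under 0.05). The count of 0 lay close to the threshold, since Adgrg1, Tle6 and Oxt, named next, each had an adjusted p of 0.0502. Limited to regions with exactly 1 peak in each list, a choice made after seeing the data, the centred limma fit called 114 shorter. Without centring it called 856 regions (3.53%), all shorter for H3K9cr. Of these 56 (6.54%) overlapped the 1 kb window of a listed start site. The most shortened of them lay at Adgrg1, an adhesion receptor gene, where H3K9ac covered 1677 and 1387 bases and H3K9cr 242 and 254 (uncentred limma log2 difference -2.62, adjusted p = 0.031). At Tle6, a Groucho family gene, the values were 1480 and 1387 against 244 and 261, and at Oxt, the oxytocin gene, 1337 and 1431 against 414 and 395. At each of these genes the shorter H3K9ac stretch was several times the longer H3K9cr stretch. Oxt was picked after its values were seen.

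**Figure D3:**
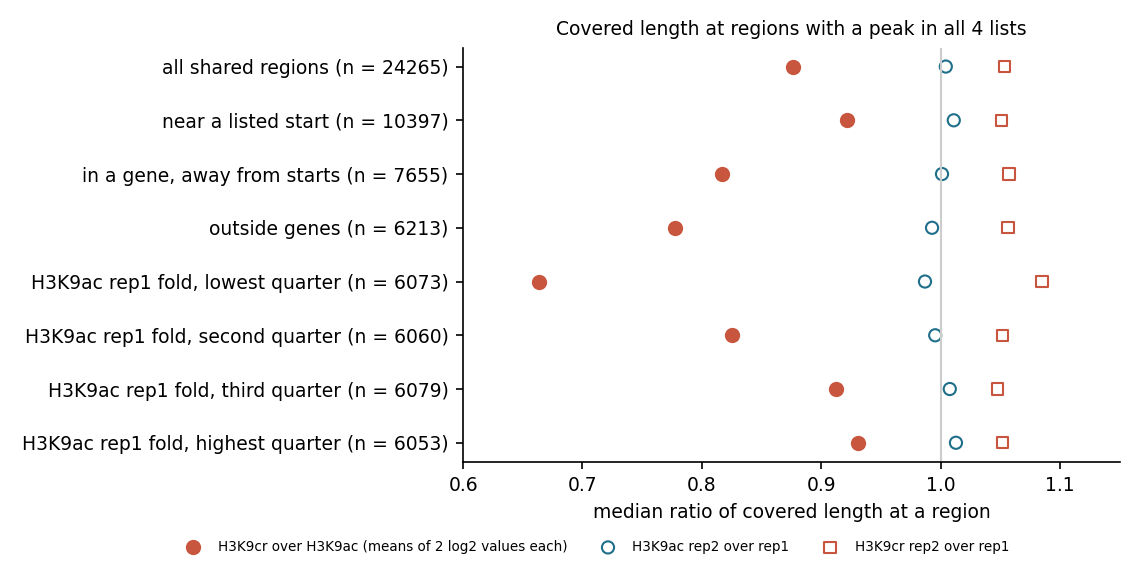
Median ratio of covered length per shared region, H3K9cr over H3K9ac (filled circles) and replicate 2 over replicate 1 of each mark (open symbols), for all regions, by place and by 4 equal groups of H3K9ac replicate 1 fold enrichment. The ratio between marks lies between 0.663 and 0.931, with its lowest value in the weakest group.

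The 5 named genes were chosen for the highest within-list ranks in all 4 lists, so that their likeness between the marks is fixed by the choice. They were Hoxb4 and Hoxb8, Cdk12, a kinase of the elongating polymerase, Rpl23, a ribosomal protein gene, and Zfp207, a zinc finger gene of spindle assembly. Hoxb4 and Hoxb8 took identical values from 1 long region over Hoxb2 to Hoxb9, so they are not separate observations. Zfp207 had a fold enrichment of 209 and 217 for H3K9ac and 202 and 212 for H3K9cr, and Cdk12 had 188 and 228 against 191 and 230. At both genes the replicates of a mark differed by more than the means of the marks.

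The longest regions, in the Hox clusters, were almost equally covered by both marks. The longest lay in the clusters of the Hox genes, transcription factors that give the neural tube its position along the head to tail axis. The longest, at chr11:96268439-96356778, ran over Hoxb2 to Hoxb9, and was covered over 88214 and 88088 bases by H3K9ac and over 87439 and 87954 by H3K9cr. The region of Hoxc4, Hoxc5 and Hoxc6 was covered over 48597 and 48048 bases against 47558 and 48146. At Hoxa3 to Hoxa9 the lengths were 35949 and 35493 against 34521 and 35341. Other long regions with a listed start were those of Zic2 and Zic5, zinc finger genes of the dorsal neural tube (31055 and 31983 against 28647 and 29806), Hoxd3 and Hoxd4 (24073 and 23913 against 22763 and 23120), and Pou3f2, a neural POU factor gene (23041 and 23058 against 22105 and 22546). Nr2f1, a nuclear receptor gene, had 21935 and 21922 bases of H3K9ac and 19372 and 20768 of H3K9cr. Of the regions named here, all but that of Hoxc4, Hoxc5 and Hoxc6 were longer in both H3K9ac lists than in both H3K9cr lists. For comparison, the median ratio of H3K9cr to H3K9ac was 0.922 over all shared regions near a listed start. The regions of Zic2 and Zic5 and of Nr2f1 lay near that value. The part of region length in the likeness of the marks at the Hox clusters was not tested.

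At gene starts the marks were almost always found together. Start sites were listed for 17492 of 21900 protein-coding genes, and the others were not analysed here by start. A peak within 1 kb of a start was present in all 4 lists for 10667 genes (61.0%) and in none for 6404 (36.6%). Replicates disagreed for 333 genes, 86 (0.492%) had H3K9ac only and 2 (0.0114%) H3K9cr only. These last counts depended on the lists: with equal numbers of peaks they were 22 and 16, and with 1 list left out 142 to 161 and 7 to 12. The median day 4 level was 31.5 CPM for genes with all 4 peaks, 0.28 where replicates disagreed, 0.27 for H3K9ac only and 0.00 for genes without a peak. At least 1 CPM was reached by 90.5% of the first, 20.2% of the genes of H3K9ac only and 6.504% of those without a peak.

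The genes of H3K9ac only that had strong peaks carried H3K9cr just outside the window. At Ptpn6, which encodes the phosphatase SHP-1, the fold enrichment within 1 kb was 136 and 135 for H3K9ac, and the H3K9cr peaks of the same region, at 121 and 138, ended 1166 and 1079 bases from the start. Gpsm3 (H3K9cr peaks at 1063 and 1139 bases) and Slx4 (1103 and 1059 bases) were of the same kind. Of the 86 genes, 9 lay in a region that was not H3K9ac only, and counting by region gave 79 genes in that class. The remaining genes had weak peaks: P2ry12, the microglial ADP receptor gene, had 6.18 and 6.13, Dnajb13, a sperm and cilium chaperone gene, 6.13 and 5.67, Vstm4 6.13 and 5.85, and Apela, which encodes a peptide hormone of early embryos, 5.42 and 7.26. Apela was added to the named genes after the region count was seen. None of these 4 genes exceeded 0.28 CPM in a day 4 library. Stox2 was the most abundant of the class, at 436 and 440 CPM on day 4 against 59.8 and 62.5 at day 0 (edgeR log2 change 2.84, SE 0.05, adjusted p = 2.6e-17), with peaks of 3.01 and 3.61 at its listed start. Tfpi, a coagulation inhibitor gene, had 5.82 and 5.33 CPM and peaks of 5.42 and 4.55. The 2 genes of H3K9cr only were at or under 0.58 CPM in both day 4 libraries.

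The start-site classes differed in CpG and in motif content, none of which entered their definition. Genes with all 4 peaks had a median of 23 CpG in the 300 bases and a ratio of observed to expected CpG of 0.80, genes of H3K9ac only had 7 and 0.32, and genes without a peak 3 and 0.18. Genes where replicates disagreed were close to those of H3K9ac only, with 9 and 0.39. The letters GGGCGG of the GC box, on either strand, were found at 71.8% of genes with all 4 peaks, 37.2% of H3K9ac only, 11.9% without a peak, 47.4% where replicates disagreed, and 49.2% of all 17492. TATAAA, the TATA box, went the other way in the first 3 of these classes, with 8.56%, 15.1% and 25.2%, and 14.8% of all. CCAAT hardly differed, with 43.1%, 39.5% and 41.4%, and 42.3% of all. CCGGAAG, an ETS factor site, was at 19.2%, 5.81% and 3.03%, and 12.9% of all. Each motif was searched on both strands and scored as present or absent. For genes with several listed starts, a motif at any start counted, and the highest CpG number and ratio of any start were taken. A match describes letters in a window and does not show binding.

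The RNA change after retinoic acid was set beside the balance of the marks. Between day 0 and day 4, edgeR called 36.2% of 17789 tested genes higher and 36.1% lower at an adjusted p under 0.05. The fit took its spread from all RNA libraries of the series, those of day 2 with DMSO and with MS-275 included. Its test measures only the spread between these libraries. Among genes with all 4 peaks, 4008 of 10360 tested (38.7%) rose and 4100 (39.6%) fell, and among genes of H3K9ac only 16 of 52 (30.8%) rose and 19 (36.5%) fell. The median ratio of covered length was 0.922 at risen genes, 0.926 at fallen genes and 0.921 at genes that were not called. Both H3K9ac lists exceeded both H3K9cr lists at 60.3%, 54.1% and 56.9% of them, against 57.2% of all 10667 genes. From day 4 to day 8 edgeR called 21.7% of tested genes higher and 19.8% lower. Of the 52 tested genes of H3K9ac only, 11 (21.2%) rose and 2 (3.85%) fell. The shares were 22.6% and 13.2% where replicates disagreed, and 20.6% and 8.92% for genes without a peak. Across the 10578 genes with all 4 peaks and an RNA value, the Spearman correlation of fold enrichment with day 4 CPM was 0.609 and 0.620 for H3K9ac and 0.626 and 0.621 for H3K9cr, a description across genes that share their libraries.

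**Figure D4:**
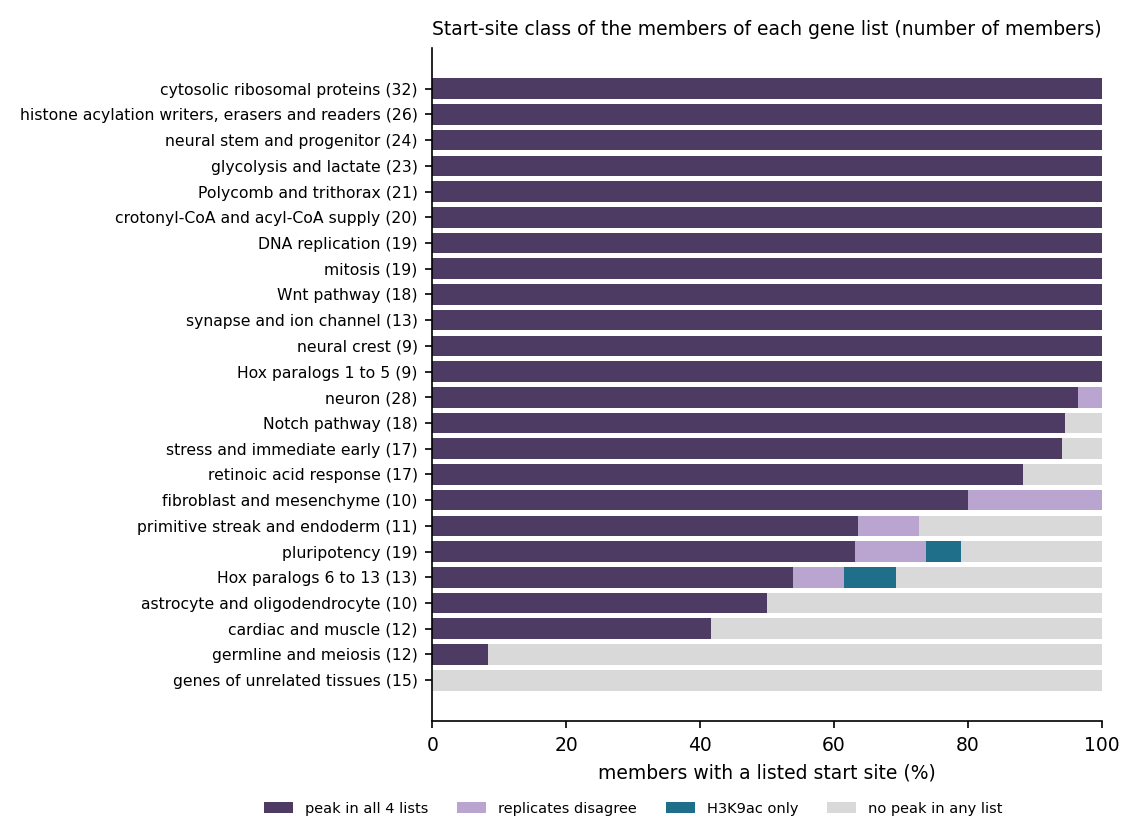
Start-site class of the members of 24 gene lists, in percent of the members with a listed start site (number in parentheses). In 12 lists every member had a peak in all 4 lists, H3K9ac only occurs for Tdgf1 and Hoxa13, and no member was H3K9cr only. Over all start-site genes 61.0% had a peak in all 4 lists, and 9572 of the 10070 at 1 CPM or more at day 4.

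Genes of the neural programme carried both marks. All 24 neural stem and progenitor genes with a listed start had a peak in all 4 lists, against 61.0% of all start-site genes. Of the 10070 start-site genes at 1 CPM or more at day 4, however, 9572 had all 4 peaks. The part of expression level in the counts of this and the other gene lists was not tested. By day 4, 21 of 24 rose while 1 fell (background 36.2% and 36.1%). Sox1, which commits cells to the neural lineage, had a fold enrichment of 42.6 and 67.0 for H3K9ac and 50.5 and 55.0 for H3K9cr, covered 9449 and 9705 against 8551 and 8247 bases, and rose from 2.15 and 1.40 to 85.4 and 77.8 CPM (edgeR log2 change 5.51, SE 0.13, adjusted p = 7.9e-16). Sox2, active in both pluripotent and neural cells, had 109 and 95.4 against 92.0 and 91.2. Nes, encoding the filament protein nestin, had 55.0 and 50.7 against 52.9 and 47.6, and the proneural factor gene Neurog1 51.5 and 35.0 against 39.9 and 25.6. Pax6, a determinant of the dorsal neural tube and eye, had separate short peaks upstream in all 4 lists, and its downstream stretch was covered as 1 peak of 11587 and 11241 bases by H3K9ac and as 2 peaks by H3K9cr (6456 and 4415 bases in replicate 1, 6435 and 4433 in replicate 2), whose fold enrichments were 56.3 and 50.4 for the first and 8.66 and 9.12 for the second, the part at the downstream start site. Every one of these genes carried both marks in both replicates.

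Neuronal and retinoic acid genes followed the same pattern. Over all start-site genes 61.0% had all 4 peaks, and over all tested genes 36.2% were higher and 36.1% lower by day 4. Among start-site genes at 1 CPM or more at day 4, 9572 of 10070 had all 4 peaks. Of 28 neuron genes 27 had all 4 peaks and 26 rose by day 4 with none lower, and replicates disagreed only at Rbfox3, the gene of the late neuronal marker NeuN. Tubb3, encoding neuronal tubulin, had 114 and 101 for H3K9ac and 107 for both H3K9cr lists, and Dcx, a microtubule protein gene of young neurons, 35.6 and 32.5 against 28.5 and 37.0. Of 17 genes of the retinoic acid response 15 had all 4 peaks, and Aldh1a1 and Stra8 had none. Rarb, the receptor gene directly switched on by retinoic acid, had 129 and 133 against 98.4 and 114, covered 8069 and 8038 against 6376 and 6829 bases, and rose from 1.58 and 0.90 to 139 and 142 CPM. Cyp26a1, which degrades retinoic acid, had 27.3 and 43.1 for H3K9ac and 18.9 and 39.3 for H3K9cr, so that its replicates differed more than the marks did. Of 15 Hox genes of paralog groups 1 to 5, 9 had a listed start, and these all had 4 peaks and all rose. Of 24 genes of groups 6 to 13, 13 had a listed start, of which 7 had all 4 peaks, and Hoxa13 had H3K9ac only (4.71 and 4.31) without detectable RNA at day 4.

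Pluripotency genes had all 4 peaks about as often as all start-site genes. Of 19 genes 12 (63.2%) had all 4 peaks, against 61.0% of all start-site genes. No peak was found at 4 (Fgf4, Nanog, Tcl1 and Zfp42), against 36.6% of all. Replicates disagreed at Nr5a2 and Pou5f1, and Tdgf1 had H3K9ac only. By RNA 14 of 17 tested genes fell and 2 rose, against 36.1% lower and 36.2% higher of all tested genes. Pou5f1, the gene of the factor Oct4, fell from 1433 and 1401 to 2.31 and 2.997 CPM (edgeR log2 change -9.06, SE 0.09, adjusted p = 3.5e-19) and had day 4 peaks of 3.27 and 4.09 for H3K9ac and 2.97 in 1 H3K9cr list. Tdgf1, a Nodal co-receptor gene, fell from 120 and 125 to 0.16 and 0.39 CPM and had day 4 H3K9ac peaks of 3.98 and 3.67 over 236 and 247 bases. Utf1 fell to 0.26 and 0.06 CPM and had both marks at day 4, with 6.003 and 6.90 for H3K9ac and 4.39 and 3.70 for H3K9cr. Utf1 was picked after its values were seen.

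The machinery of the marks itself carried both. A listed start was at hand for 26 of 32 genes of histone acylation writers, erasers and readers and for 20 of 24 genes of crotonyl-CoA and acyl-CoA supply, and all of these had peaks in all 4 lists, against 61.0% of all start-site genes. The same held for the 23 of 24 genes of glycolysis and lactate, the 32 of 44 of cytosolic ribosomal proteins and the 19 of 25 of DNA replication that had a listed start. All 4 peaks were also present at 9572 of the 10070 start-site genes at 1 CPM or more at day 4. Ep300, the gene of p300, had 135 and 84.3 against 121 and 125, and fell from 405 and 394 to 251 and 263 CPM. Mllt3 had 98.3 and 98.0 against 77.0 and 90.4 and rose from 8.30 and 7.85 to 163 and 153 CPM (edgeR log2 change 4.29, SE 0.09, adjusted p = 2.8e-16). Sirt1, a deacylase gene, fell from 179 and 176 to 35.9 and 35.7 CPM, and Cdyl, which encodes a protein that lowers histone crotonylation, from 75.6 and 72.8 to 18.7 and 16.8. Ep300, Sirt1 and Cdyl were picked after their values were seen. Of the acylation list 13 genes rose and 8 fell, and of the acyl-CoA list 9 rose and 7 fell, against 36.2% higher and 36.1% lower of all tested genes. At the other extreme none of 15 genes of unrelated tissues had a peak in any list, and 11 of 12 germline genes had none, against 36.6% of all start-site genes without a peak. Fibroblast and mesenchyme genes, whose markers were raised as given above, had all 4 peaks at 8 of 10 starts and 9 of 10 rose.

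Regions of H3K9ac only were also counted inside all 21900 protein-coding genes. Of these, 1339 held 1 such region, 495 held 2 to 4, and 51 held 5 or more. The last had a median length of 322 kb, against 15.2 kb for genes with none. Ttc28 held 16, Gse1 12 and Auts2, a gene of neuronal development, 11. Of the tested genes with 2 to 4 such regions 63.1% were higher at day 4 and 21.5% lower, and of those with 5 or more 70.6% and 13.7%, against 35.2% and 40.9% of those with none. Gene length differed with the count, so the same was counted in genes of at least 100 kb: 66.5% of those with 2 or more regions of H3K9ac only were higher and 18.8% lower, against 47.9% and 31.7% of those with none and 51.8% and 29.0% of all. Among these long genes, those with 2 or more also held more shared regions, a median of 4 against 1, and had a higher day 4 level, 41.7 against 12.8 CPM. These are counts without a test, and the part of gene length within the class was not tested.

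Other peak lists told the classes apart to different degrees. Open chromatin overlapped 71.8% and 66.2% of the shared regions and 18.6% and 13.5% of the regions of H3K9ac only, against 48.4% and 43.4% of all 41690. H3K18la, whose lists were the longest at day 4 with 54865 and 51057 peaks, overlapped 82.9% and 83.7% of the shared regions and 62.4% and 63.1% of those of H3K9ac only, below the 69.8% and 70.3% of all regions. Regions where replicates disagreed had lower shares, 47.2% and 47.0% on H3K18la and 14.7% and 10.8% on open chromatin. At day 2 with DMSO, when the lists held 26555 peaks of H3K9ac and 24874 of H3K9cr, 81.9% and 80.0% of the shared regions already had a peak of H3K9ac and of H3K9cr, against 16.6% and 13.03% of the regions of H3K9ac only. With MS-275 at day 2, when the lists held 84418 and 70748 peaks, the shares in the regions of H3K9ac only were 62.2% and 52.3%. In numbers, 654 of these 5021 regions had an H3K9cr peak with DMSO and 2624 with MS-275. Regions where replicates disagreed had nearly the same shares of H3K9cr, 13.1% with DMSO and 52.6% with MS-275, and all 41690 regions had 52.04% and 74.7%. Among those with an H3K9ac peak at day 2, 60.5% with DMSO and 81.3% with MS-275 also had H3K9cr, against 63.7% and 81.4% where replicates disagreed. The day 2 values rest on 1 list each and have no replicate check. Median region length was 1773 bases for shared regions, 574 for H3K9ac only and 380 where replicates disagreed. The parts of list length, region length and peak strength in all these shares were not tested.

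**Figure D5:**
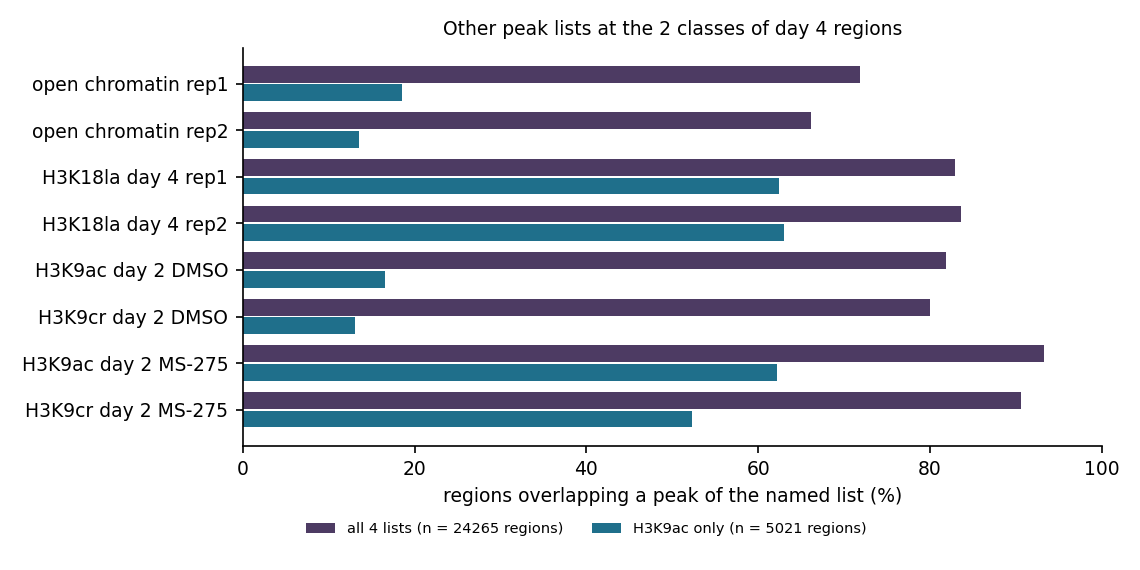
Share of day 4 regions that overlapped a peak of the named list, for the 24265 regions with a peak in all 4 lists and the 5021 regions of H3K9ac only. Regions of H3K9ac only rarely lay on open chromatin (18.6% and 13.5%) and more often on H3K18la (62.4% and 63.1%), and 13.03% had H3K9cr at day 2 with DMSO against 52.3% with MS-275.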

How the data were processed

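H3K9ac and H3K9cr at day 4 were taken from 4 deposited peak lists, which the authors called separately in each library. Per the submitters' processing notes, the tools were Salmon 1.1.0 and DESeq2 1.26.0, with MACS2 2.2.7.1 and Bowtie2 2.4.1, and the build was GRCm38. Caller settings and the control used are not given in the sources used here. Per the file headers, the deposited lists give the pileup signal at the summit, the fold enrichment (a ratio), and −log10 p and −log10 q, with no read depth. For RNA the authors deposited estimated counts per gene, between 18115926 and 19586374 per library, which were rounded to whole numbers here.

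Peaks of the 4 lists were merged, and regions were classed by the lists with a peak (overlap of at least 1 base). Start sites came from RefSeq promoters of GRCm38.p6 with a window of 1 kb. Covered length was tested with limma 3.58.1 on log2 bases, computed from the deposited peak positions and centred by list. RNA was tested with edgeR 4.0.16 (quasi-likelihood, Benjamini-Hochberg, adjusted p under 0.05), fitted to all RNA libraries of the series together. Values per list were compared by exact permutation. Both fits were tested on simulated data. R 4.3.3, Python 3.11.15, pandas 2.3.3, scipy 1.17.1 and matplotlib 3.10.9 were used. Of 55385 RNA identifiers, 55144 matched a symbol.

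Genes were named by rule: the start sites of one mark only with the highest fold enrichment (8 per mark) or the highest day 4 RNA (3 per mark), members of the 24 lists in those classes, the 5 highest-ranking genes of all 4 lists, the most shortened regions, and a panel of marker genes. The rule for shortened regions asked for regions called by limma. Since the centred fit called 0, regions called without centring were used instead. Genes outside these rules were picked after their values were seen. They are the genes said to be so in the text, and also Oxt and Cd164l2. The genes named for the longest regions, or for the number of regions of H3K9ac only inside them, were also outside the rules. The members, the lists and the panel were chosen with earlier results of these data known. Alternatives were other peak thresholds, overlaps, equal list lengths, each replicate left out, no centring, a replicate block, DESeq2 1.42.0 and no filter on low counts.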

Additional observations from a re-analysis of the deposited data

How the results depend on the processing

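The number of regions with one mark only depended on the lists. With equal numbers of peaks, 869 regions were H3K9ac only and 193 were H3K9cr only, and at the start sites 22 and 16 genes. Leaving out 1 list at a time gave between 6642 and 9906 regions of H3K9ac only, 54 to 182 of H3K9cr only, 142 to 161 genes of H3K9ac only and 7 to 12 of H3K9cr only. At −log10 q of at least 5, 1 gene was H3K9cr only. With either end of every gene as its start, chosen after seeing the data, 153 genes were H3K9ac only. H3K9ac only outnumbered H3K9cr only under each of these settings. The count of regions and of genes with a peak in all 4 lists stayed within 1.5 times under every alternative run. limma called 856 regions shorter for H3K9cr without centring, 114 among regions with exactly 1 peak in each list (chosen after seeing the data), and 0 with a replicate block. Samples with the same number deviated together little in covered length (r = 0.0595) and RNA (-0.030 and 0.0012), whereas the order of fold enrichment was closer between marks at the same number (0.972 and 0.978) than between replicates (0.963 and 0.962). The labels name no shared batch. With the replicate block edgeR called 6406 genes higher and 6395 lower at day 4. Among 34 named genes and 238 alternative values no called RNA change reversed, and 9 values for Calr4, Ccdc88b and Tfpi lost their call. Uncalled changes did turn sign with 1 day 0 library left out, from -1.24 to 0.026 at Cd164l2, and from 0.55 to -0.058 at both Dnajb13 and Zfp92 (log2). No cause of these shifts was tested. Precision is limited by 2 lists per mark and by an unknown ChIP depth.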
